A study of Mus musculus with 58 samples.

Results

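The positions of BMAL1 and CLOCK on liver chromatin were compared through 2 deposited peak lists, with 1254 BMAL1 peaks and 439 CLOCK peaks in mm9 coordinates. Every entry of both lists was used, and a BMAL1 and a CLOCK peak were paired where their centres lay within 500 bp. These 1693 entries were part of 3172 in the 4 peak lists of the series, the others being from NIH3T3 cells, a mouse fibroblast line synchronised with dexamethasone. The series held 58 samples, and 1 of them, the CLOCK chromatin immunoprecipitation (ChIP-seq) sample called pooled in its label, carried a liver peak list. Per the labels it came from livers of C57/BL6 mice aged 12 to 14 weeks that were kept in 12 h of light and 12 h of darkness with free access to food, with no genotype and no treatment named. Its label gives neither a time of day nor a number of animals. Per the series design text, the authors had made the BMAL1 list by reprocessing 2 earlier liver libraries taken at zeitgeber time 6, 6 h after lights on. Both lists held positions without heights, scores or values per library, so depth is unknown, no replicate error exists, and the tissue could not be checked against marker genes. All intervals below are 95% Clopper-Pearson intervals over peaks and cover counting error alone. Beside a count of 0, the share that 3 peaks would make is given as well.

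BMAL1 and CLOCK are basic helix-loop-helix proteins that form a heterodimer, bind E-box elements and drive transcription of genes with a daily rhythm. Among their direct targets are the genes of their own repressors, the PER and CRY proteins, and of the REV-ERB nuclear receptors, which close the feedback loops of the clock. In liver the same dimer also acts on genes of metabolism, in part through the bZIP factors DBP, TEF and HLF.

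The E-box letters CACGTG, which read the same on both strands, were looked up together with the related letters CACGTT and their other-strand form AACGTG. The forms differ in 1 letter, so no site counts as both. The search was made in RefSeq promoter windows of assembly GRCm38.p6. Each window ran from 250 bases before to 50 bases after a RefSeq start site, which may differ from the start site the authors used, and peaks in mm9 were not placed on these windows. Of the 35 genes with a BMAL1 peak paired with CLOCK, 25 had a window. Shown 5' to 3' on the strand of the gene are windows of 6 genes whose BMAL1 peak near the start site was paired with CLOCK, and of Per3, whose BMAL1 peak 4 bp from the start site was not. Capitals mark these letters. For Per1 and Slc20a1 the first of 2 windows is shown, and RefSeq names Gm129 Ciart.
Per1: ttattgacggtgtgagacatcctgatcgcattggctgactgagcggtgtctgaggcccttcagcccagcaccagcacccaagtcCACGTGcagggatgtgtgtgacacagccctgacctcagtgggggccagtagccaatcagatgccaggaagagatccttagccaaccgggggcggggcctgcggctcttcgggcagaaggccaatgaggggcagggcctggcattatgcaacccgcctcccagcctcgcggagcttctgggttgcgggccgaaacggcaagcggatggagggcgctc
Cry1: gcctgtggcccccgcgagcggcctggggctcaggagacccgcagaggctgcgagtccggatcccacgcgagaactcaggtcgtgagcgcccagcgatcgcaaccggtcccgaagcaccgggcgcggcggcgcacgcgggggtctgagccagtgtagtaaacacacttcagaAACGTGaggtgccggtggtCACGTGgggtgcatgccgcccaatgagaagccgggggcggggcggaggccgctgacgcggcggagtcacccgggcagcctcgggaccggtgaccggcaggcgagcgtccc
Gm129 (Ciart): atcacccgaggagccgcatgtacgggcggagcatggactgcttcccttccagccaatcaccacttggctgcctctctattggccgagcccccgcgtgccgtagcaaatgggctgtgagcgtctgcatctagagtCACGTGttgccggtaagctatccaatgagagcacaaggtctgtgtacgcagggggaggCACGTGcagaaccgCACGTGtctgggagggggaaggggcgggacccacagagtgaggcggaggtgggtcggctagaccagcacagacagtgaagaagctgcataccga
Nr1d1: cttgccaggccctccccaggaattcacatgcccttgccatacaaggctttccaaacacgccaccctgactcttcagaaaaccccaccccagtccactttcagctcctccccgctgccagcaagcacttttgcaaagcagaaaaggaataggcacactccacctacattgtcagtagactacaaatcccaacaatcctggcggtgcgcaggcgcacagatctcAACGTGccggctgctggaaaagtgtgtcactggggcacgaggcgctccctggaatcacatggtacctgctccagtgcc
Slc20a1: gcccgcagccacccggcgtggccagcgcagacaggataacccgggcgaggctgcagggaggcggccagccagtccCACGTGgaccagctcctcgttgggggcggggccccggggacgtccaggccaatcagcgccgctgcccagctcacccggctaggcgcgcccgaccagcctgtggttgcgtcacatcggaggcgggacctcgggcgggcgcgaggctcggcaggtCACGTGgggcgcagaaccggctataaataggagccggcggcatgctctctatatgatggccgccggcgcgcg
Dbp: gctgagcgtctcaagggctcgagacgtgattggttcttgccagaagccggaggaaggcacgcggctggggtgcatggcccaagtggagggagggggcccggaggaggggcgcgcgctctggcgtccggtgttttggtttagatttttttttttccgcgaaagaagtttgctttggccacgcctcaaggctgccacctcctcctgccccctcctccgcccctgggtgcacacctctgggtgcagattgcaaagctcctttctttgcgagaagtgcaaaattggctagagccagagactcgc
Per3: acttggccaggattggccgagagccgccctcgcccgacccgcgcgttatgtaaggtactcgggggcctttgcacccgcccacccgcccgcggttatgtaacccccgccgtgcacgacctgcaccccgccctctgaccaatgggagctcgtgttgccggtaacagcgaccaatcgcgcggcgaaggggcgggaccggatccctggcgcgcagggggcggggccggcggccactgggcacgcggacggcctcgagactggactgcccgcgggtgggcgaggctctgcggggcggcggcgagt
The windows lie on chromosome 11 at 69098699 to 69098998 (Per1, plus strand), chromosome 10 at 85185005 to 85185304 (Cry1, minus strand), chromosome 3 at 95882179 to 95882478 (Gm129, minus strand) and chromosome 11 at 98775328 to 98775627 (Nr1d1, minus strand). Those of Slc20a1, Dbp and Per3 lie on chromosome 2 at 129198523 to 129198822 (plus strand), chromosome 7 at 45704997 to 45705296 (plus strand) and chromosome 4 at 151044616 to 151044915 (minus strand).

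In these windows Gm129 held CACGTG 3 times, beginning 116, 58 and 44 bases before the start site, with 8 bases between the last 2. Slc20a1 held it 2 times, 175 and 22 bases before the start, and Per1 once, 166 bases before it. Cry1 combined AACGTG 79 bases and CACGTG 60 bases before the start with 13 bases between them, and Nr1d1 held AACGTG alone, 28 bases before the start. Tef, which has 2 windows, held CACGTG 127 bases before one RefSeq start and 138 bases before the other. The windows of Dbp and Per3 held none of these letters. Over all genes with a paired BMAL1 peak within 250 bp of the authors' start site, 5 of 9 with a window held CACGTG (55.6%, interval 21.2 to 86.3). Genes whose BMAL1 peaks within 250 bp were all without CLOCK held it in 132 of 256 cases (51.6%, 45.3 to 57.8), against 2187 of 27025 genes in the whole table (8.09%, 7.77 to 8.42). For peaks within 1 kb of the start site the order turned, with 5 of 13 genes with both proteins (38.5%, 13.9 to 68.4) and 146 of 350 with BMAL1 alone (41.7%, 36.5 to 47.1) holding CACGTG. Within 250 bp and with CACGTT counted as well, the shares were 66.7%, 57.4% and 13.0%. At both distances the interval of the paired genes spans that of the genes with BMAL1 alone, and so few paired genes cannot resolve a difference. A match is a description of letters and does not show a binding site.

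CLOCK peaks lay at 54 of the 1254 BMAL1 peaks (4.31%, 3.25 to 5.58), and BMAL1 peaks lay at 47 of the 439 CLOCK peaks (10.7%, 7.97 to 14.0). Where the proteins were paired, their peaks nearly coincided. The CLOCK centre was within 50 bp of the BMAL1 centre at 32 of the 54 peaks, within 100 bp at 46 and within 200 bp at 52, with a median offset of 35.8 bp (quartiles 14.0 and 71.0). At 49 of 54 the BMAL1 centre lay inside the 250 bp CLOCK interval. The 3 widest pairs were those of Per2 at 324 bp, Cry1 at 207 bp and again Per2 at 183 bp, each at a BMAL1 peak that shared its CLOCK peak with a nearer one. No BMAL1 peak had its nearest CLOCK centre between 500 and 1000 bp away. The nearest outside were a Dbp peak at 1064 bp, the peak of Nfe2 (a blood-lineage bZIP factor) at 1924 bp and a Per1 peak at 3610 bp. A limit of 1000 bp would have paired the same number of BMAL1 peaks, and 1157 of 1254 BMAL1 peaks had no CLOCK peak within 100 kb.

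**Figure D1:**
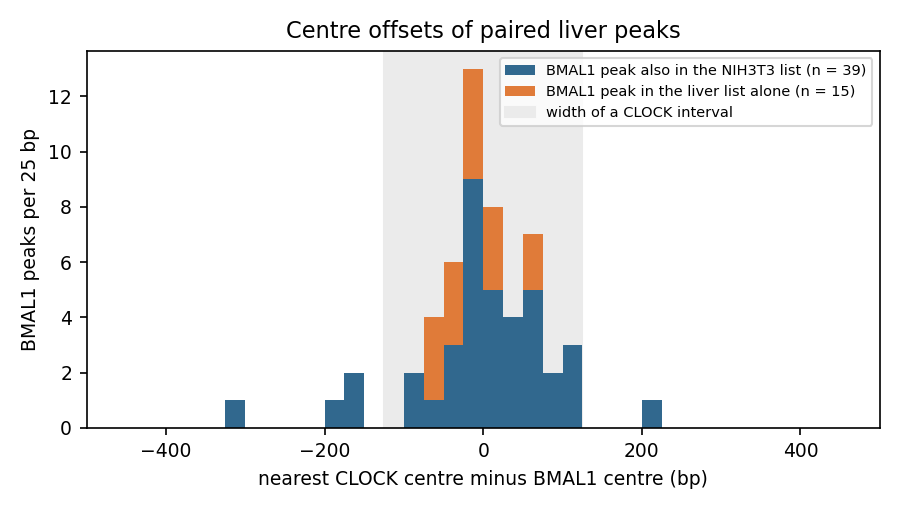
Offset of the nearest CLOCK centre from each of the 54 paired BMAL1 centres in bp, with higher genome coordinates to the right, as counts of BMAL1 peaks per 25 bp, split by whether the BMAL1 peak was also in the NIH3T3 list (blue, n = 39) or in the liver list alone (orange, n = 15). Grey marks the 250 bp width of a CLOCK interval, and 49 of 54 peaks fall inside it.

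CLOCK lay to neither side of BMAL1 in particular. Along the direction of transcription, which was known for 46 paired peaks, the CLOCK centre was downstream at 23 and upstream at 23, with a median of 0.75 bp. Paired peaks in the liver list alone had offsets of 2 to 74 bp (median 26.0, n = 15), and those also in the NIH3T3 list 0.5 to 324 bp (median 40.0, n = 39). Several BMAL1 peaks often stood at 1 CLOCK peak: of the 47 CLOCK peaks, 32 had 1 BMAL1 peak within 500 bp, 7 had 2, 6 had 3 and 2 had 4. When peaks of each protein within 1 kb were joined, the pairs formed 38 BMAL1 loci, 14 of them at clock genes and 24 at other genes.

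Among genes of repressors of the clock, Per1, Per2, Cry1 and Gm129 had pairs within 1 kb of a start site, Cry2 had one farther away and Per3 had none. At Per1 the BMAL1 peak 50 bp upstream of the start site (chromosome 11, 68908641 to 68908699) lay 0.5 bp from the centre of a CLOCK peak at 68908545 to 68908794, the closest pair of all. A further Per1 peak 338 bp upstream was 57.0 bp from another CLOCK peak, while the third, 158 bp upstream of a different annotated start site, had none within 500 bp. Per2 had 3 BMAL1 peaks, 11 bp downstream and 226 and 367 bp upstream of the start site, and a single CLOCK peak (chromosome 1, 93355826 to 93356075) whose centre was 56.0 bp from the first. Per3 differed from both, as the CLOCK peak nearest to its BMAL1 peaks, 4 bp downstream and 303 bp upstream of the start site, lay 911883 bp away. Cry1, which encodes a cryptochrome repressor, also had 3 BMAL1 peaks around 1 CLOCK peak (chromosome 10, 84647865 to 84648114), at offsets of 119, 154 and 207 bp, so that the CLOCK centre fell between BMAL1 peaks and on none of them. At Cry2 the pair stood 8513 bp downstream of the annotated start site nearest to it (chromosome 2, CLOCK at 92263893 to 92264142), where 2 overlapping BMAL1 entries lay 9.0 and 19.0 bp from its centre. Another Cry2 peak, 192 bp upstream of a different annotated start site, had no pair, the nearest liver CLOCK centre being 10375 bp away. Gm129, which encodes the repressor CHRONO, had 3 CLOCK peaks within 500 bp of its 3 BMAL1 peaks. Its BMAL1 peaks 30, 104 and 430 bp upstream lay 14.0, 88.0 and 40.0 bp from a CLOCK centre.

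The REV-ERB genes encode nuclear receptors that repress transcription, and Nr1d1 stood in a run of CLOCK peaks. All 4 BMAL1 peaks of Nr1d1 were paired, at offsets of 7.0, 17.5, 19.0 and 50 bp. They lay 27, 1025 and 1392 bp downstream and 8107 bp upstream of annotated start sites. The list held 15 CLOCK peaks within 12 kb of the start site, and 10 of them stood between 2.5 and 9 kb upstream, where BMAL1 had 1 peak, at the far end. The 8 CLOCK peaks of that stretch without a BMAL1 partner were 737 to 3899 bp from the nearest BMAL1 centre. NIH3T3 cells had a like arrangement, with 12 CLOCK peaks, 8 of them in that upstream stretch, and 1 BMAL1 peak there. At Nr1d2 the single BMAL1 peak, 474 bp downstream of the start site (chromosome 14, 19071054 to 19071103), lay 111 bp from a CLOCK centre. Bhlhe40 and Bhlhe41, which encode the DEC repressors, had 1 and 3 BMAL1 peaks without a pair. Usp2, a ubiquitin protease gene, had 1 BMAL1 peak 1126 bp downstream of the start site, and the nearest CLOCK peak was 128771 bp away.

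**Figure D2:**
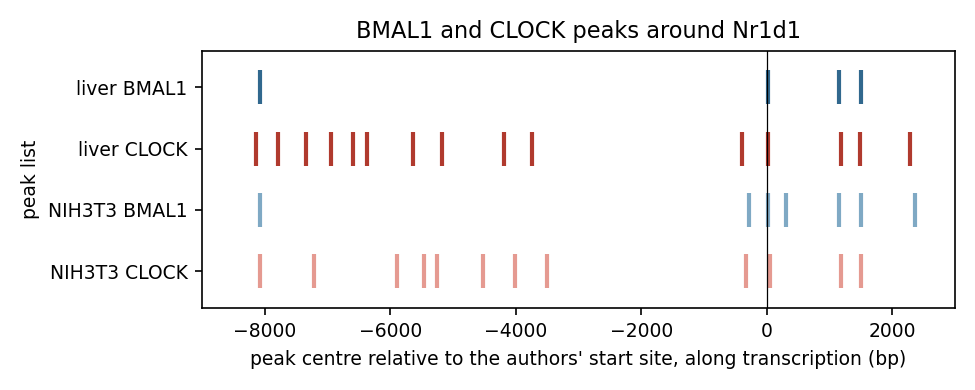
Centres of the peaks around Nr1d1 in bp from the start site nearest to a BMAL1 peak, along transcription, 1 row per peak list. The 10 liver CLOCK marks from 2.5 to 9 kb upstream share that stretch with 1 liver BMAL1 mark.

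Pairs were also found at Dbp, Tef and Hlf, whose bZIP products act at D-box elements, and not at the 2 BMAL1 peaks of Nfil3, which encodes a repressor at these elements. At Tef 4 BMAL1 peaks within 149 bp of annotated start sites faced 2 CLOCK peaks (chromosome 15, 81641369 to 81641618 and 81641600 to 81641849) at offsets of 14.0 to 98.0 bp. Dbp had CLOCK at 3 of 4 BMAL1 peaks, at offsets of 9.0, 33.5 and 83.0 bp, and a further CLOCK peak 560 bp from the nearest BMAL1 centre, just outside the limit. Hlf differed from Tef and Dbp in that its pair stood 27255 bp upstream (chromosome 11, BMAL1 at 90279441 to 90279533, offset 29.5 bp), while its peak 598 bp upstream was 35669 bp from the nearest CLOCK peak. In all, CLOCK lay at 27 of the 42 BMAL1 peaks of genes in the core clock and clock output lists (64.3%, 48.0 to 78.4), against 27 of the other 1212 (2.23%, 1.47 to 3.22) and 4.31% of all. These lists were written with this difference already known, so it carries no test.

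**Figure D3:**
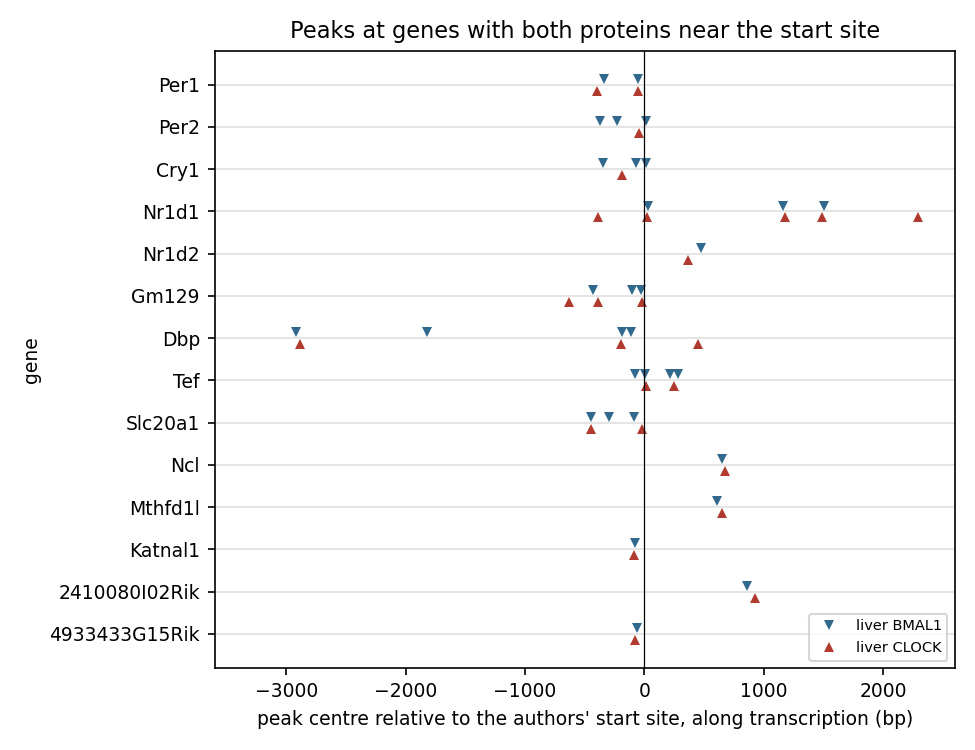
Centres of liver BMAL1 (blue) and CLOCK (red) peaks in bp along transcription from the authors' start site nearest to a BMAL1 peak, for the 14 genes with a known strand and a paired peak within 1 kb of a start site. Per2 and Cry1 show 3 BMAL1 marks around 1 CLOCK mark, and the 6 genes from Slc20a1 down are outside the clock lists. Peaks farther out are not drawn, among them the unpaired Per1 BMAL1 peak at 3559 bp and the upstream run of CLOCK peaks at Nr1d1.

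Outside the clock lists 24 genes had both proteins, and 7 of them had a pair within 1 kb of a start site. Slc20a1, which encodes a phosphate transporter, was the one with most peaks, 3 BMAL1 peaks at 90, 293 and 443 bp upstream and 2 CLOCK peaks (chromosome 2, 129023932 to 129024181 and 129024355 to 129024604), at offsets of 69.0, 151 and 1.0 bp. Ncl, the gene of the nucleolar protein nucleolin, had a pair 647 bp downstream (chromosome 1, BMAL1 at 88255344 to 88255423, offset 32.0 bp). Mthfd1l, which encodes a mitochondrial enzyme of one-carbon metabolism, had one 606 bp downstream (chromosome 10, BMAL1 at 6372752 to 6372801, offset 43.0 bp). Katnal1, related to the microtubule-severing enzyme katanin, had one 77 bp upstream (chromosome 5, BMAL1 at 149806827 to 149806926, offset 7.0 bp). The remaining 3 were the named but little-described loci Gm12905 at 14 bp, 4933433G15Rik at 58 bp and 2410080I02Rik at 861 bp from the start site. The paired BMAL1 peaks of all 7 genes were also in the NIH3T3 BMAL1 list.

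A second group of genes outside the clock lists had its pairs farther away, and for these the authors' annotation names only a gene near the peak. Igsf8, which encodes a membrane protein of the immunoglobulin superfamily, had 2 BMAL1 peaks 1587 and 1649 bp upstream at 1 CLOCK peak (chromosome 1, 174240252 to 174240501). Fbxl22, an F-box gene, had a pair at 2750 bp and Lima1, which encodes an actin-binding protein, at 20057 bp. Those 4 peaks were also in the NIH3T3 list, and the others were in the liver list alone. Among the latter, Zfp91 (a zinc finger ubiquitin ligase) had its pair at 1268 bp with an offset of 4.0 bp. Slc2a5, which encodes the fructose transporter GLUT5, had one 3836 bp downstream (chromosome 4, BMAL1 at 149506867 to 149506916), also 4.0 bp apart. Klf13, a Krüppel-like factor, had one of its 2 peaks paired, 6975 bp downstream and 66.0 bp apart. Chka, the gene of choline kinase alpha, had one 18537 bp upstream (chromosome 19, BMAL1 at 3833212 to 3833261, offset 19.0 bp), and Etfa, a subunit of the electron transfer flavoprotein, one at 57150 bp. The other pairs were annotated to Gm15653 (2734 bp), 2700029M09Rik (9906 bp), Gm2862 (10517 bp), Gm15904 (10841 bp), Kctd1 (27549 bp), Mamdc2 (41608 bp), 9430029A11Rik (55682 bp), Cnot7 (56842 bp) and D18Ertd653e (128964 bp). At the far sites the peaks were as close as at promoters: offsets of pairs beyond 1 kb had a median of 26.5 bp (2 to 123 bp, n = 24) and those within 1 kb a median of 41.5 bp (0.5 to 324 bp, n = 30).

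Counted by gene, 35 of 985 genes with a liver BMAL1 peak had CLOCK at 1 or more (3.55%). The core clock list had 8 of 12 such genes, among them Per1, Per2, Cry1, Cry2, Nr1d1, Nr1d2 and Gm129, and the clock output list had 3 of 4. No gene had CLOCK among 15 of the lipid, cholesterol and bile acid list, which included Fabp1, Ppara, Plin2 and Elovl6. The same held for 9 genes of the glucose and insulin list (Gys2, Pygl and Slc2a2 among them), 4 xenobiotic and redox genes, 7 cell cycle genes and 3 hepatocyte genes. At a share of 3.55% over all genes, counts of 0 in lists of this size are near the background and are no result about these lists. Klf13 was the 1 of 11 other transcription factors, Ncl the 1 of 3 ribosome biogenesis genes, and genes in no list had CLOCK in 22 of 917 cases (2.40%). None of the 8 genes of the non-parenchymal and blood list had a BMAL1 peak, a list too short to read anything from that count. Of the 15 genes with both proteins and more than 1 BMAL1 peak, 7 had CLOCK at every peak, namely Per2, Cry1, Gm129, Nr1d1, Tef, Igsf8 and Slc20a1.

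Out to 5 kb from the start site the share of BMAL1 peaks with CLOCK stayed between 5.29% and 5.45%. It was 18 of 340 within 200 bp (5.29%, 3.17 to 8.24), 12 of 220 from 200 to 1000 bp (5.45%, 2.85 to 9.33) and 8 of 151 from 1 to 5 kb (5.30%, 2.31 to 10.2). Farther out it was 8 of 284 from 5 to 20 kb (2.82%, 1.22 to 5.47) and 8 of 259 beyond 20 kb (3.09%, 1.34 to 6.00), and all 5 intervals overlapped. Within 1 kb, where Per1, Per2, Cry1, Dbp and Tef have their pairs, 30 of 560 peaks had CLOCK (5.36%, 3.64 to 7.56) and beyond it 24 of 694 did (3.46%, 2.23 to 5.10). The difference did not pass the test, with an odds ratio of 1.58 (95% exact interval 0.881 to 2.86) and a two-sided Fisher exact p of 0.123 (adjusted over 3 tests 0.123). Its direction turned without clock genes and also without entries shared with the NIH3T3 list. These 2 groups overlap, as 26 of the 27 paired peaks of clock genes were in that list too. So were 13 of the 27 paired peaks of other genes. Without peaks of clock genes the counts were 9 of 532 within 1 kb and 18 of 680 beyond it, which turns the odds ratio to 0.633 (0.248 to 1.50; exact Fisher p = 0.328, two-sided). As the clock lists were written with their share of CLOCK known, this p only describes the counts. Without the 263 BMAL1 entries that have the same start and end in the NIH3T3 list the counts were 1 of 340 and 14 of 651, which gives 0.134 (0.00317 to 0.890; unadjusted exact Fisher p = 0.0257, two-sided). Those 263 entries held 39 of the pairs, and what is left is 981 peaks of the liver list alone and 10 others. The value therefore describes liver-only peaks and is no test of the whole list. Each peak counts once in such a test, also where several stand close together, as at Tef.

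Split by distance, BMAL1 sites listed in both liver and NIH3T3 cells had CLOCK more often than liver-only sites both at promoters and away from them, a difference that rested on entries identical in both BMAL1 lists. Common peaks are those with an NIH3T3 BMAL1 centre within 500 bp. Within 1 kb of the start site, CLOCK lay at 29 of 230 common peaks (12.6%, 8.61 to 17.6), such as those of Per2, Ncl and Katnal1, and at 1 of 330 liver-only peaks (0.303%, 0.00767 to 1.68). The odds ratio was 47.2 with a wide interval (7.71 to 1944), and Fisher's exact two-sided p was 3.91e-11 (adjusted over 3 tests 1.17e-10). Several of these peaks stand close together, and with peaks joined into loci the counts were 16 of 160 and 1 of 300 (two-sided Fisher exact p = 3.25e-07). Beyond 1 kb, CLOCK lay at 10 of 43 common peaks (23.3%, 11.8 to 38.6) and at 14 of 651 found in liver alone (2.15%, 1.18 to 3.58). This odds ratio was 13.7, between 5.03 and 36.0, with an exact Fisher p of 2.99e-07 (two-sided, adjusted over 3 tests 4.48e-07). The 10 common peaks were 3 of Nr1d1, 2 of Cry2, 2 of Igsf8 and 1 each of Hlf, Lima1 and Fbxl22. Without clock genes, 9 of 204 common and 0 of 328 liver-only peaks within 1 kb had CLOCK (two-sided Fisher exact p = 1.60e-04), and beyond 1 kb 4 of 34 and 14 of 646 did (odds ratio 5.99, interval 1.35 to 20.7; two-sided Fisher exact p = 0.00970). The clock lists were written with their share of CLOCK known, so these unadjusted p-values only describe the counts. All 39 paired common peaks were among the 263 entries that were identical in both BMAL1 lists, and no label says how those lists were assembled. Without the identical entries 10 common peaks were left, all within 1 kb, and 0 of these had CLOCK against 1 of 330 liver-only peaks (two-sided Fisher exact p = 1), so the contrast could not be made on other entries.

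**Figure D4:**
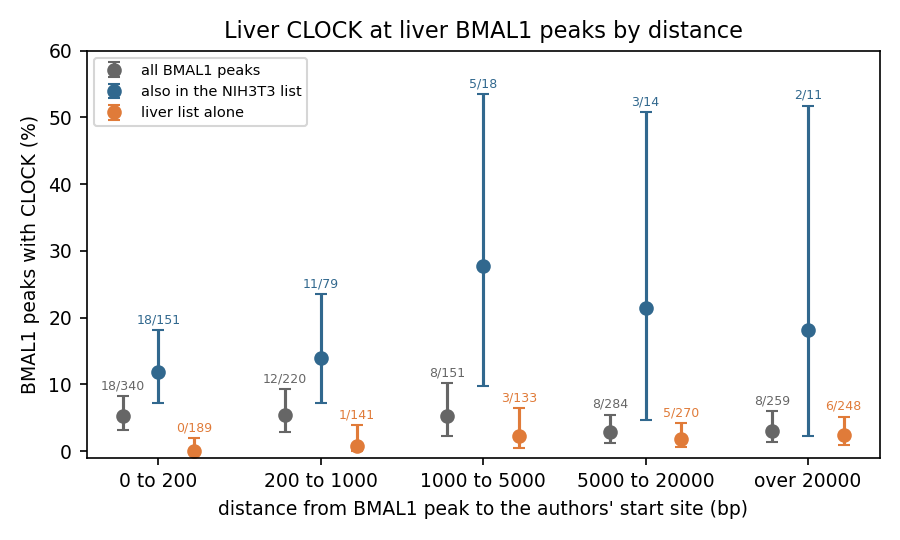
Share of liver BMAL1 peaks with a liver CLOCK centre within 500 bp, in percent, by distance to the authors' start site, for all peaks (grey), peaks also in the NIH3T3 list (blue) and peaks in the liver list alone (orange). Points are shares, bars 95% Clopper-Pearson intervals and numbers are peaks with CLOCK over all peaks of that kind, from 0 of 189 liver-only peaks within 200 bp to 5 of 18 common peaks at 1 to 5 kb.

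Liver-only pairs lay farther from start sites than common pairs, as did liver-only BMAL1 peaks without CLOCK. Of the 15 pairs, 14 lay beyond 1 kb, with a median distance of 10841 bp from the start site against 293 bp for the 39 common ones. Among peaks without CLOCK the medians were 6036 bp (966 liver-only) and 170 bp (234 common), so a far position was not particular to pairs. Of all 981 liver-only BMAL1 peaks, 15 had CLOCK. Over the 991 BMAL1 entries not identical in the NIH3T3 list the share was 1.51%. None of the 189 liver-only BMAL1 peaks within 200 bp of a start site had CLOCK. That count allows a share of up to 1.59% by the limit of 3 peaks and 1.93% by the Clopper-Pearson interval. Both limits lie above 1.51%, a share that counts these 189 peaks as well. The liver-only peaks farther than 200 bp from a start site had CLOCK at 15 of 792. These 2 groups were not tested against each other, so the count of 0 is not read as setting the 189 peaks apart. Examples, picked after their values were seen, are Plin2, which encodes a lipid droplet protein, at 3 bp, the fatty acid elongase gene Elovl6 at 7 bp and the lactate dehydrogenase gene Ldha at 94 bp. The CLOCK list of NIH3T3 cells also divided the pairs. It had a peak within 500 bp at 26 of the 54 liver BMAL1 peaks with liver CLOCK (48.1%, 34.3 to 62.2) and at 56 of the 1200 without (4.67%, 3.54 to 6.02). These groups also differed in NIH3T3 BMAL1, as 39 of the 54 (72.2%) and 234 of the 1200 (19.5%) were common peaks. The gap in NIH3T3 CLOCK was not tested apart from that. At clock genes 24 of 27 pairs also had NIH3T3 CLOCK, the exceptions being both Cry2 entries and 1 peak in the liver list alone. At other genes 2 of 27 did, those of Mthfd1l and 2410080I02Rik, and Slc20a1, Ncl, Igsf8 and Katnal1 had CLOCK in liver alone. None of the 15 liver-only pairs had NIH3T3 CLOCK, which allows a share of up to 20.0% by the limit of 3 peaks and 21.8% by the Clopper-Pearson interval. In the reverse direction, 3 clock gene peaks of the liver BMAL1 list had NIH3T3 CLOCK and no liver CLOCK, namely the third Per1 peak, the Cry2 promoter peak and the Bhlhe41 peak 9464 bp downstream.

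The other 392 CLOCK peaks had no liver BMAL1 centre within 500 bp, and most were far from any. The median distance was 1080980 bp, and 380 of them lay more than 10 kb away. Of the 10 nearest to the limit, 8 were at Nr1d1 (737 to 3762 bp), 1 was at Dbp (560 bp) and 1 at Nfe2 (1924 bp). Apart from that of Nfe2, these CLOCK peaks stood beside BMAL1 peaks of genes that already had pairs.

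In NIH3T3 cells CLOCK lay at 102 of 463 BMAL1 peaks (22.0%), with a median offset of 40.3 bp against 35.8 bp in liver, although CLOCK intervals were 50 bp wide there and 250 bp in liver. CLOCK was at 70 of 332 NIH3T3 BMAL1 peaks within 1 kb of a start site (21.1%, 16.8 to 25.9) and at 32 of 131 beyond it (24.4%, 17.3 to 32.7). The lists share BMAL1 entries, differ in length and were not matched for time of sampling, and the difference between the contexts was not tested.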

How the data were processed

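Peak positions of BMAL1 and CLOCK in mouse liver, with the NIH3T3 lists for comparison, were taken from the deposited files in mm9, per the submitters' processing notes, which name Bowtie, SAMtools and bedtools without roles. Which peak caller was used was not given in the sources used here. Each signed distance to a gene's start site, treated as a score, and the gene are the authors' own, and negative distances were taken as upstream: in all 96 genes where 2 peaks fixed a strand, it was the RefSeq strand. Of 985 genes, 914 matched a RefSeq symbol or unique synonym. No gene was named for 50 peaks.

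Starts are printed counting from 1. Centres were paired within 500 bp, shares have Clopper-Pearson intervals, and 3 splits of the peaks were tested by Fisher's exact test (two-sided, Benjamini-Hochberg adjusted). Peaks are not replicates. Every gene with a paired peak and every clock gene with a BMAL1 peak was to be named, and 1 core clock gene is not reported here. Members and lists were chosen with earlier results of these data known. The code was tested on simulated data. Alternatives were other limits, interval overlap, joined peaks, other promoter windows and leaving out genes or identical entries. SciPy 1.17.1 gave the tests and intervals, pandas 2.3.3 and NumPy 2.4.6 handled the tables under Python 3.11.15, and matplotlib 3.10.9 drew the plots.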

Additional observations from a re-analysis of the deposited data

How the results depend on the processing

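Centre limits of 200 and 1000 bp, overlap by at least 1 bp and leaving out Nr1d1 kept each share, count, offset and test on its side of the threshold. Leaving out core clock and clock output genes lowered the share of BMAL1 peaks with CLOCK to 2.23%, that of CLOCK peaks with BMAL1 to 6.37%, and turned the odds ratio of peaks within 1 kb against farther ones to 0.633. Leaving out entries identical in the NIH3T3 list left nearly only liver-only peaks. It gave a share of 1.51%, 15 genes with both proteins in place of 35, and an odds ratio of 0.134. With a promoter window of 5 kb that odds ratio was 1.86, with an unadjusted two-sided Fisher exact p of 0.0485. Its exact interval, 0.999 to 3.61, included 1. With peaks joined within 1 kb and clock genes left out, an alternative chosen after seeing the data, that odds ratio was 0.592. The contrast of common against liver-only peaks passed the unadjusted threshold in 9 alternatives within and beyond the promoter window that kept the identical entries, with Fisher exact p of at most 3.77e-04 and 0.0272. The latter came from joined loci without clock genes, where the exact interval of the odds ratio, 0.967 to 22.2, included 1. Without those entries, an alternative also chosen after seeing the data, its odds ratio within 1 kb was 0 (0 of 10 against 1 of 330, two-sided Fisher exact p = 1), and beyond 1 kb no common peak was left, so it has no value. For this contrast joined loci had odds ratios of 33.0 within 1 kb and 12.1 beyond it (two-sided Fisher exact p = 3.25e-07 and 2.40e-05). For loci within 1 kb of the start site against farther ones the odds ratio was 1.16 (two-sided Fisher exact p = 0.738). No paired analysis was possible because the lists hold no values per sample. The lists hold no depth, height or replicate, so absence of CLOCK and a signal below the threshold of its list cannot be told apart.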
